A study of Mus musculus with 15 samples.

Results

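CC chemokines are small secreted proteins that draw leukocytes along a gradient, and macrophages release several of them when lipopolysaccharide (LPS) engages Toll-like receptor 4. The 9 genes described here are the CC chemokines of macrophages on the nanoString nCounter Mouse Immunology panel, taken as the rows of the value table whose gene symbol was Ccl2, Ccl3, Ccl4, Ccl5, Ccl6, Ccl7, Ccl9, Ccl12 or Ccl22. All 9 were found among the 561 genes of the panel, and 8 of them were among the 269 genes tested, whose mean reached 20 counts. Ccl6 did not pass that filter and is described by its counts only.

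The study asked whether extracellular vesicles (EVs) carried in plasma after whole body irradiation (WBIR) alter the response of macrophages to LPS. The cells were RAW 264.7 macrophages, an established mouse line, so every sample comes from 1 line in culture and no host tissue was sampled. The plasma EVs were isolated by differential centrifugation from female C57BL/6J mice aged 6 to 8 weeks, which were sham mice, mice that had received 2 Gy or mice that had received 9 Gy. EVs of irradiated mice were collected on day 3 or day 7, which gave 5 groups of 3 samples, 15 in all. All 5 groups, the sham EV group included, received LPS together with the EVs for 24 hours. A group without LPS or without EVs was not analysed here, so each difference below is between EVs and not between cells with and without LPS. The number of EVs per well and the lysis reagent differ between the labels and the methods of the study. The study's text states triplicate runs, and nothing in the sources used here says that the 3 samples of a group came from separate cultures or separate EV pools. The p-values therefore measure the spread between these samples, which may be technical. Of the samples titled 9 Gy day 3, replicates 1 and 2 have a label of day 7 and were placed at day 3 by their titles.

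Ccl2, Ccl7 and Ccl12 bind the receptor CCR2 and recruit monocytes. Ccl3 and Ccl4 are macrophage inflammatory proteins and Ccl5 is RANTES, and Ccl3 and Ccl5 bind CCR1, which draws monocytes and T cells. Ccl6 and Ccl9 are rodent ligands of CCR1, and Ccl22 binds CCR4 on regulatory and T helper type 2 cells. LPS induces several of these genes through NF-κB and through the interferon route downstream of Toll-like receptor 4.

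The nCounter assay counts fluorescent barcodes hybridized to mRNA, with no amplification, and the values were raw counts without control probes. Total counts ranged from 43176 to 87899 in the 9 Gy day 3 samples and from 453178 to 837995 in the other 12 samples. Each sample was divided by the geometric mean of the 14 housekeeping genes of the panel, which spanned 454 to 545 counts with sham EVs, 69.2 to 124 with 9 Gy EVs of day 3 and 801 to 872 with 9 Gy EVs of day 7. Values scaled in this way, and multiplied by 1 factor common to all samples, are called normalized counts. Of 9 macrophage markers looked up, 8 were on the panel and all 8 were counted. Their summed normalized count was 5028 to 8090 with sham EVs. With 9 Gy EVs it was 2472 to 4072 at day 3 and 2478 to 3675 at day 7. The markers did not move together. With the housekeeping scaling 5 of the 8 were called lower and 1 higher at each 9 Gy day, while 41.3% and 49.1% of all genes tested were lower and 11.2% and 11.9% higher at day 3 and day 7. The split moved with the scaling. Of the lower markers, Cd14 was called under 2 of 5 scalings at day 3 and 3 at day 7 and Msr1 under 2 at each day, and at day 7 Fcgr4 and Ptprc were called higher under 4 and 3. The higher one was Csf1r, the receptor for colony stimulating factor 1, at 18.1 to 35.4 normalized counts with sham EVs, 112 to 166 with 9 Gy EVs of day 3 and 83.3 to 108 with 9 Gy EVs of day 7 (2.29 and 1.87 higher on the log2 scale, adjusted p = 8.9e-06 and 1.4e-05 in edgeR, and called higher under all 5 scalings of the samples compared below). The part of these markers in the changes below was not tested. Of the markers of other cells, Cd8a of T cells was counted most, at 74.1 to 96.1 normalized counts with sham EVs, 36.0 to 65.2 with 9 Gy EVs of day 3 and 37.9 to 58.4 with 9 Gy EVs of day 7. Cd8a was called lower at both 9 Gy days (-0.89 and -0.82 on the log2 scale, adjusted p = 0.010 and 0.0029 in edgeR), under 2 of 5 scalings, and the B cell marker Ms4a1 at day 7 (-0.71, adjusted p = 0.016 in edgeR), under 1. No other marker looked up for T cells, B cells, NK cells, neutrophils or platelets exceeded 34 raw counts in any sample.

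Of the 9 genes, 8 lie in 2 clusters on mouse chromosome 11 (positions on GRCm38.p6 from RefSeq). Ccl2 (chr11:82035577-82037452), Ccl7 (chr11:82045712-82047525) and Ccl12 (chr11:82101845-82103399) form one cluster. Ccl5 (chr11:83525778-83530518), Ccl9 (chr11:83572917-83578636), Ccl6 (chr11:83587886-83593087), Ccl3 (chr11:83647843-83649378) and Ccl4 (chr11:83648624-83664683) form the other. The annotated span of Ccl4 overlaps that of Ccl3, and the positions of the panel's probes are not given in the sources used here. Ccl22 lies alone on chromosome 8 (chr8:94745684-94751388).

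Promoter sequence, from 250 bases before to 50 after the annotated gene start, was taken from RefSeq (GRCm38.p6) for 5 of the 9 genes, and that of Ccl2, Ccl4, Ccl5 and Ccl7 was not used here. Shown are Ccl3, Ccl9 and Ccl12, which were lower with 9 Gy EVs, and Ccl22, which was not. Each reads 5′ to 3′ on the strand of its gene. Capitals mark matches to 4 motifs, searched on both strands, namely the NF-κB motif, the core of the interferon-stimulated response element (GAAANNGAAA), AP-1 (TGANTCA) and the TATA box (TATAAA).
Ccl3 (chr11:83649329-83649628, minus strand): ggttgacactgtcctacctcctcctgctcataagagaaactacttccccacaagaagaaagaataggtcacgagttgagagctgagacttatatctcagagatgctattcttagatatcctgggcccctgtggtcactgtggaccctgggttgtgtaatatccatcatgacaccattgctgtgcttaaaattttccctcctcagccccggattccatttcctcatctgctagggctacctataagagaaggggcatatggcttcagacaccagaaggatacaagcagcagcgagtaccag
Ccl9 (chr11:83578587-83578886, minus strand): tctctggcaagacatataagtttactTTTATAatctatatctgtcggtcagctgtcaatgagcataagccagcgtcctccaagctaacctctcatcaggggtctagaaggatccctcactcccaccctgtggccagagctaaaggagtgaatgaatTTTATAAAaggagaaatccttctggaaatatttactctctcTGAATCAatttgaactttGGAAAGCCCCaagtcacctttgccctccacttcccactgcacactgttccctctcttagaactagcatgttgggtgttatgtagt
Ccl12 (chr11:82101595-82101894, plus strand): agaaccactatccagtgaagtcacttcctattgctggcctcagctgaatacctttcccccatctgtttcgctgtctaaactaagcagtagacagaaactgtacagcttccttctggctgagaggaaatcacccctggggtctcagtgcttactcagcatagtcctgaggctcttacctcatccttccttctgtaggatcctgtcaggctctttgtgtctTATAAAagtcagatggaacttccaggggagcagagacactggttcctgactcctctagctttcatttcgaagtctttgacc
Ccl22 (chr8:94745434-94745733, plus strand): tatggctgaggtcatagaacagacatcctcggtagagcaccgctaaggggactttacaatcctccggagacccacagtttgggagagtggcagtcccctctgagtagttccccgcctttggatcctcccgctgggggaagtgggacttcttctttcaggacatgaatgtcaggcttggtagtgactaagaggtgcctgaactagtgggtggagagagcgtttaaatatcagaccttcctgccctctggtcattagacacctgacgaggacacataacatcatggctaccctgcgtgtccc

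Ccl9 held an NF-κB match whose first base lay at -35 from the start, an AP-1 match at -53 and 3 TATA box matches at -224, -94 and -92, of which those at -94 and -92 overlap on opposite strands. Ccl12 held 1 TATA box match, at -31. The windows of Ccl3, Ccl22 and Ccl6 held no match. Among all 32851 promoter windows of the same length, 8.46% held the NF-κB motif, 3.44% the interferon-stimulated response element core, 7.81% AP-1 and 13.6% the TATA box. A match is a string of letters in this window and was not tested for binding.

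With the housekeeping scaling Ccl5 showed the largest change of the 8 genes tested. With sham EVs its normalized counts were 115288, 119082 and 111876. With 9 Gy EVs of day 3 they were 20142, 22878 and 27617, and with 9 Gy EVs of day 7 23459, 26152 and 32648. All 6 samples given 9 Gy EVs lay far below all 9 others, the lowest of which was at 103074, and no group of 9 Gy EVs overlapped sham EVs or 2 Gy EVs. Ccl5 was 4.90-fold lower than with sham EVs at day 3 (log2 fold change -2.29, standard error 0.14, adjusted p = 2.8e-08 by the quasi-likelihood test of edgeR, Benjamini-Hochberg adjusted) and 4.21-fold lower at day 7 (-2.07, standard error 0.14, adjusted p = 5.0e-08 by the same edgeR test). In these bulk samples fewer cells expressing a gene and less RNA per cell cannot be told apart.

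Ccl9 and Ccl3 also fell with 9 Gy EVs of both days. Ccl9 was at 30884, 34371 and 28404 normalized counts with sham EVs, at 8856, 9637 and 17017 with 9 Gy EVs of day 3 and at 8957, 9297 and 18312 with 9 Gy EVs of day 7. In both 9 Gy groups replicate 3 was the highest and still lay below every sham EV sample. The fall of Ccl9 was 2.64-fold at day 3 (log2 fold change -1.40, standard error 0.27, adjusted p = 0.00082 in edgeR) and 2.56-fold at day 7 (-1.36, standard error 0.27, adjusted p = 0.00078 in edgeR). With total-count scaling neither fall was called (-0.40 and -0.30). Without the samples whose day labels conflict, or with these placed at day 7, the 9 Gy day 3 group was replicate 3 alone, assumed to vary like the other groups, and the log2 fold change of Ccl9 was -0.88 (adjusted p = 0.079 and 0.074 in edgeR).

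Ccl3 was at 101088, 133949 and 114736 normalized counts with sham EVs. It was at 62926, 53532 and 67496 with 9 Gy EVs of day 3 and at 51390, 44864 and 65104 with 9 Gy EVs of day 7. The groups did not overlap, since the highest 9 Gy sample stood at 67496 and the lowest sham EV sample at 101088. The fall was 1.90-fold at day 3 (log2 fold change -0.93, standard error 0.14, adjusted p = 0.00011 in edgeR) and 2.17-fold at day 7 (-1.12, standard error 0.14, adjusted p = 1.7e-05 in edgeR). With total-count scaling Ccl3 was not called at either day, at 0.10 and -0.02. Ccl3 and Ccl5 alone made up 42.2% to 45.1% of the total with sham EVs, so a fall in them lowers that divisor by construction.

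Ccl4 is the neighbour of Ccl3 on the chromosome. Its normalized counts were 2740, 3410 and 3517 with sham EVs, 4072, 3159 and 1981 with 9 Gy EVs of day 3 and 2821, 2516 and 1845 with 9 Gy EVs of day 7. The samples overlapped sham EVs at both days, and within each 9 Gy group replicate 1 was the highest and replicate 3 the lowest. No change was called at day 3 (log2 fold change -0.07, standard error 0.22, adjusted p = 0.78 in edgeR) or at day 7 (-0.43, standard error 0.22, adjusted p = 0.10 in edgeR). Without the samples of conflicting day labels, the 9 Gy day 3 group was replicate 3 alone, the lowest of its group. The log2 fold change of Ccl4 was then -0.70 at day 3 and stayed at -0.43 at day 7. With total-count scaling Ccl4 was called higher at both days (0.98 and 0.71, adjusted p = 0.0067 and 0.029 in edgeR).

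**Figure D1:**
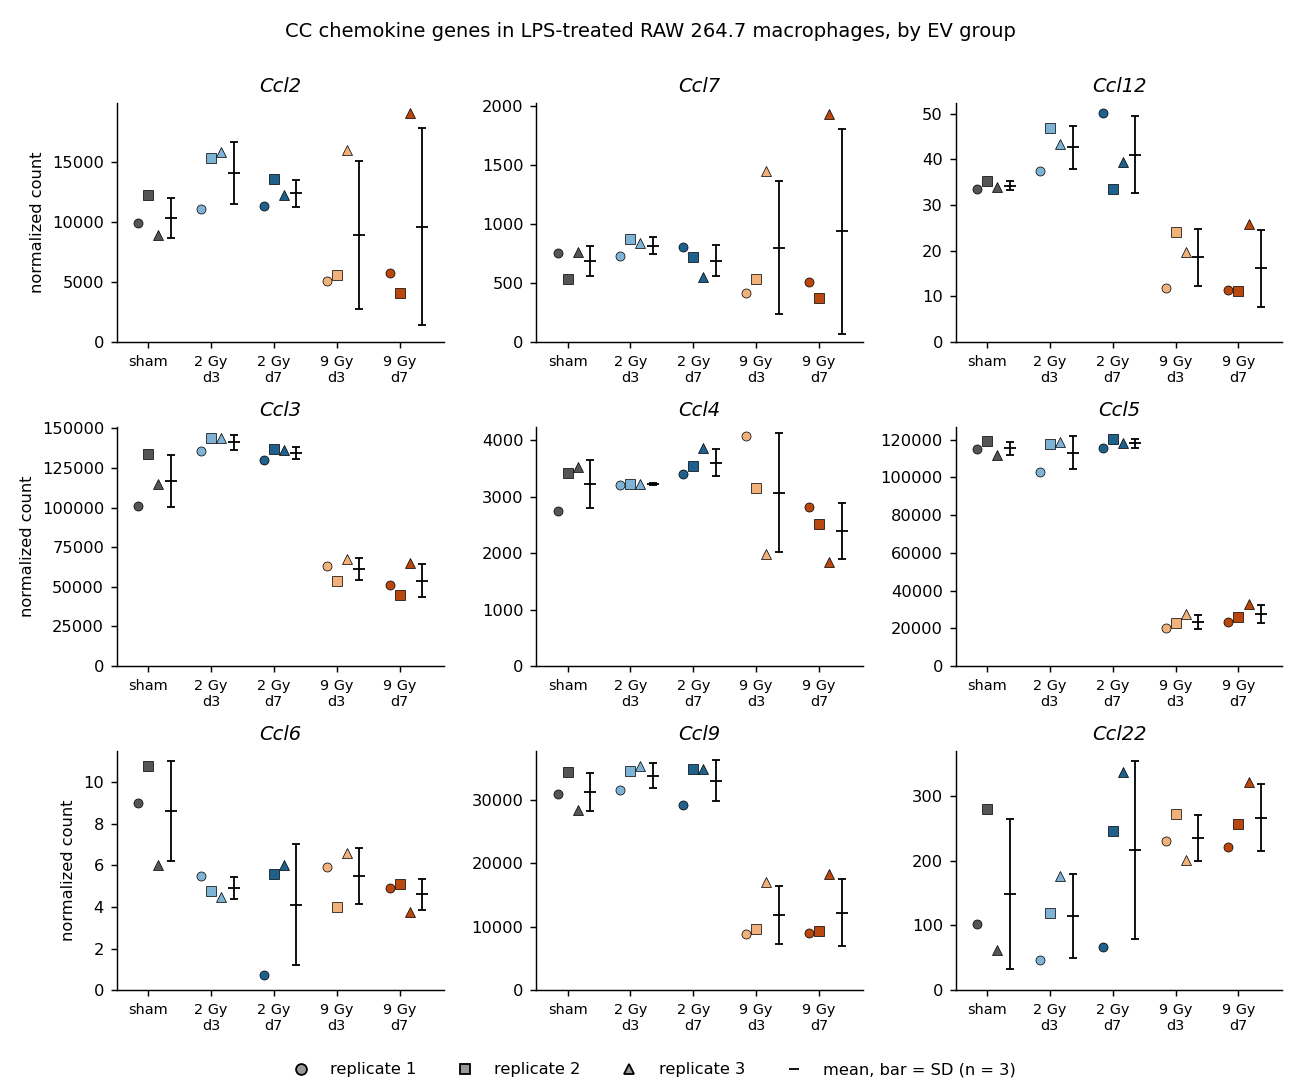
Normalized counts (y axis, linear and starting at 0) of the 9 CC chemokine genes in each of the 15 samples, by EV group (x axis, d3 and d7 for day 3 and day 7), with markers for the replicate number and bars for the mean and SD of 3 samples. Ccl5, Ccl9 and Ccl3 are lower in all 6 samples given 9 Gy EVs, whereas Ccl2 and Ccl7 are high in replicate 3 of both 9 Gy groups.

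Among the CCR2 ligands, Ccl12 was lower with 9 Gy EVs and Ccl2 and Ccl7 were not called. Ccl12 had few counts. Its normalized counts were 33.4, 35.4 and 33.9 with sham EVs, 11.9, 24.0 and 19.8 with 9 Gy EVs of day 3 and 11.3, 11.3 and 25.9 with 9 Gy EVs of day 7. Every 9 Gy sample lay below every sham EV sample, but at day 3 the values rest on raw counts of 2, 6 and 6. The fall was called at day 7 (2.10-fold, log2 fold change -1.07, standard error 0.28, adjusted p = 0.0052 in edgeR), and at day 3 the log2 fold change of -0.82 (standard error 0.42) was not called (adjusted p = 0.12 in edgeR). The call at day 7 was made with the housekeeping scalings only.

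Ccl2 (MCP-1) was at 9924, 12233 and 8966 normalized counts with sham EVs. It was at 5086, 5593 and 16043 with 9 Gy EVs of day 3 and at 5725, 4071 and 19060 with 9 Gy EVs of day 7. Replicates 1 and 2 of both 9 Gy groups lay below all 9 samples of the other groups and replicate 3 of both lay above them, so that the 9 Gy groups spread on either side of sham EVs. The log2 fold change was -0.22 at day 3 and -0.11 at day 7 (standard error 0.50 for both, adjusted p = 0.73 and 0.86 in edgeR). When both 9 Gy samples numbered 3 were left out, which was chosen after seeing the data, Ccl2 was called lower at both days (-0.96 and -1.08, adjusted p = 0.00097 and 0.00029 in edgeR). Leaving out replicate 3 of the 9 Gy day 7 group alone also gave a call there (-1.08, adjusted p = 0.031 in edgeR).

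Ccl7 (MCP-3) showed the same arrangement of samples. Its normalized counts were 751, 537 and 764 with sham EVs, 415, 537 and 1450 with 9 Gy EVs of day 3 and 505, 373 and 1931 with 9 Gy EVs of day 7. Replicate 3 of both 9 Gy groups was again above all 9 samples of the other groups, and replicates 1 and 2 were below all of them, replicate 2 of 9 Gy day 3 by less than 1 count. The log2 fold change was 0.24 at day 3 (standard error 0.54, adjusted p = 0.72 in edgeR) and 0.45 at day 7 (standard error 0.53, adjusted p = 0.47 in edgeR). Leaving out both 9 Gy samples numbered 3 was again chosen after seeing the data. The log2 fold change then turned to -0.52 at day 3 (adjusted p = 0.067 in edgeR) and to -0.64 at day 7 (adjusted p = 0.017 in edgeR). What sets the samples numbered 3 apart was not tested.

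With 9 Gy EVs and the housekeeping scaling, Ccl22 had the highest log2 fold change of the 8 genes against sham EVs, and it was not called. Its normalized counts were 102, 280 and 62.5 with sham EVs, 231, 272 and 201 with 9 Gy EVs of day 3 and 221, 258 and 322 with 9 Gy EVs of day 7. The 6 samples given 9 Gy EVs lay between 201 and 322, inside the range of the 9 others, from 46.7 to 337. The log2 fold change was 0.66 at day 3 (standard error 0.62, adjusted p = 0.38 in edgeR) and 0.85 at day 7 (standard error 0.58, adjusted p = 0.22 in edgeR). Without sham EV replicate 2, the highest of its group, the value at day 7 was 1.70 and was called (adjusted p = 0.026 in edgeR). Ccl6 had raw counts of 1 to 14 over the 15 samples, of 8 to 14 with sham EVs and of 1 or 2 with 9 Gy EVs of day 3, and no difference could be measured at these counts.

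**Figure D2:**
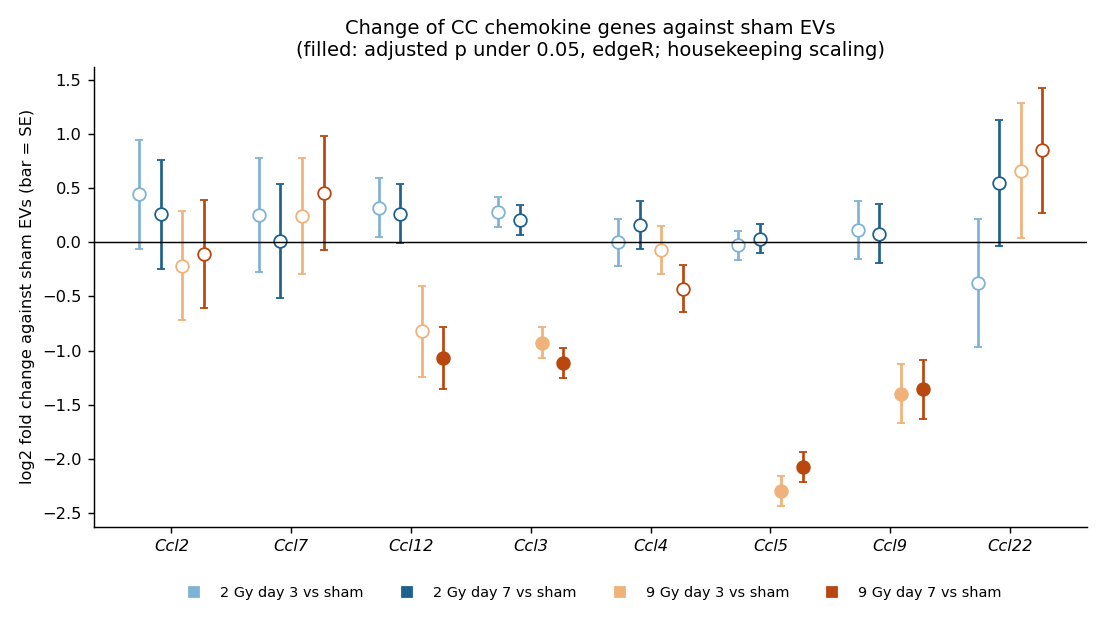
Log2 fold change against sham EVs (y axis, bars for the standard error) of the 8 tested genes (x axis) for the 4 groups given EVs of irradiated mice. Filled points passed an adjusted p of 0.05 in edgeR and are found with 9 Gy EVs only, for Ccl3, Ccl5 and Ccl9 at both days and for Ccl12 at day 7.

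In all, 3 of the 8 tested genes were lower and 0 higher with 9 Gy EVs of day 3, while 41.3% of all genes tested were lower and 11.2% higher. With 9 Gy EVs of day 7 4 were lower and 0 higher, while 49.1% of all genes tested were lower and 11.9% higher. The groups did not overlap for 4 of the 8 genes at each day, all of them lower, against 55.8% of all genes at day 3 and 61.7% at day 7. These counts are near the shares over the whole panel. Their median log2 fold change was -0.52 at day 3 and -0.75 at day 7, and that of all genes tested was -0.46 and -0.45. Both comparisons share the sham EV samples.

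EVs of mice given 2 Gy left all 8 genes without a call. Against sham EVs 0 of the 8 genes passed an adjusted p of 0.05 in edgeR at either day, and 0 at an unadjusted p of 0.05. At both days 0% of all genes were called lower and 0% higher, with 7 genes at an unadjusted p of 0.05 at day 3 and 1 at day 7. Ccl5 was at 103074, 117514 and 118555 normalized counts with 2 Gy EVs of day 3 and at 115493, 120611 and 118058 with 2 Gy EVs of day 7, which overlaps sham EVs. Ccl9 was at 31546, 34460 and 35343 at day 3 and at 29228, 34829 and 34902 at day 7, again overlapping sham EVs.

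The groups did not overlap for 2 of the 8 genes with 2 Gy EVs of day 3, against 13% of all genes, and for 0 of the 8 with 2 Gy EVs of day 7, against 4.09% of all genes. Both genes at day 3 were higher than in every sham EV sample. Ccl3 was at 135705, 143706 and 143878 normalized counts (log2 fold change 0.28, standard error 0.14, adjusted p = 1.00 in edgeR), and Ccl12 was at 37.5, 47.0 and 43.3 (0.32, standard error 0.27, adjusted p = 1.00 in edgeR). With 2 Gy EVs of day 7 Ccl3 was at 129709, 137019 and 136018 and Ccl12 at 50.3, 33.5 and 39.4, and both overlapped sham EVs. The remaining genes overlapped sham EVs as well, with group means of 14092 and 12397 normalized counts for Ccl2, 814 and 690 for Ccl7, 3217 and 3597 for Ccl4 and 114 and 217 for Ccl22 at day 3 and day 7.

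The doses were compared directly by setting both 9 Gy groups against both 2 Gy groups. The difference itself leaves out the sham EV samples, which still enter the shared estimate of spread. The test takes all samples as independent, although samples with the same number deviated together between the days (correlations of 0.330 to 0.717 for 9 Gy and 0.365 to 0.779 for 2 Gy). Ccl5, Ccl9, Ccl3 and Ccl12 were lower with 9 Gy EVs. The fall was 4.55-fold for Ccl5 (log2 difference -2.18, standard error 0.10, adjusted p = 3.5e-10 in edgeR), 2.78-fold for Ccl9 (-1.47, standard error 0.19, adjusted p = 1.5e-05 in edgeR), 2.40-fold for Ccl3 (-1.26, standard error 0.10, adjusted p = 1.0e-07 in edgeR) and 2.36-fold for Ccl12 (-1.24, standard error 0.24, adjusted p = 0.00054 in edgeR). For each of these genes all 6 samples with 9 Gy EVs lay below all 6 samples with 2 Gy EVs. With counts under 20 set to 20, Ccl12 was no longer called (-0.17, adjusted p = 0.48 in edgeR). Thus 4 of the 8 genes were lower and 0 higher, against 52% lower and 15.6% higher over all genes, and 4 of the 8 did not overlap, against 43.9% of all genes.

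The other genes were not called between the doses, at log2 differences of -0.51 for Ccl2 (standard error 0.36, adjusted p = 0.21), -0.33 for Ccl4 (standard error 0.15, adjusted p = 0.073), 0.22 for Ccl7 (standard error 0.38, adjusted p = 0.63) and 0.67 for Ccl22 (standard error 0.43, adjusted p = 0.17), all in edgeR. Leaving out both 9 Gy samples numbered 3 was chosen after seeing the data. The 9 Gy samples then kept lay below all samples of the other groups for Ccl2 and Ccl7. Both genes were then called lower (-1.37 and -0.71, adjusted p = 1.2e-06 and 0.0013 in edgeR), which follows largely from that choice. Ccl2 was also called lower without replicate 3 of 9 Gy day 3 alone (-0.88, adjusted p = 0.026 in edgeR) or of 9 Gy day 7 alone (adjusted p = 0.0045 in edgeR). Ccl4 was called lower without replicate 1 of 9 Gy day 3 (-0.46) or without replicate 1 of 9 Gy day 7 (-0.40). It was also called lower with all samples in DESeq2 (-0.33, adjusted p = 0.048). Its log2 difference was -0.64 without the samples of conflicting day labels and -0.51 with these placed at day 7. Both settings leave replicate 3 alone at 9 Gy day 3. With total-count scaling Ccl4 was called higher (0.84, adjusted p = 0.00098 in edgeR).

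The 2 days were compared within each dose. With 9 Gy EVs 0 of the 8 genes passed the threshold between day 7 and day 3, and 0% of all genes were lower and 0% were higher in edgeR, with 6 genes at an unadjusted p of 0.05. The groups overlapped for all 8 genes, against 6.32% of all genes without overlap. With 2 Gy EVs 0 of the 8 genes passed it, and again 0% of all genes were lower and 0% higher, with 4 at an unadjusted p of 0.05. Only Ccl4 did not overlap, against 7.06% of all genes, at 3198, 3228 and 3226 normalized counts at day 3 and 3390, 3544 and 3856 at day 7 (log2 fold change 0.16, standard error 0.22). A fit that was not planned took the replicate number as a block and the 2 Gy groups alone. Ccl22 was then called higher at day 7 (0.92, adjusted p = 0.00039 in edgeR). Its paired values were 46.7 and 67.2, 118 and 246, and 176 and 337 normalized counts. In that fit 29 of all 269 genes were called. Without the block and with all 5 groups in the fit, the same comparison gave 0.92 with a standard error of 0.59. In the test of whether the change between days differed between the doses, none of the 8 genes was called (adjusted p = 0.99 for each in edgeR). Over all 269 genes 0 were called, with 4 at an unadjusted p of 0.05.

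The size of the 9 Gy changes depended on the scaling, and the median log2 fold change of all genes moved with it. At day 3 that median was -0.46 with the 14 housekeeping genes, -0.27 with the housekeeping genes of at least 100 counts, 0.01 with TMM scaling, 0.02 with median-of-ratios scaling and 0.56 with total counts. At day 7 it ran from -0.45 to 0.65 in the same order. Ccl5 was called lower under all 5 scalings, with log2 fold changes from -2.29 to -1.27 at day 3 and from -2.07 to -0.98 at day 7. Ccl9 and Ccl3 were called lower at both days under every scaling but total counts, under which Ccl9 was at -0.40 and -0.30 and Ccl3 at 0.10 and -0.02, none of them called. Ccl12 at day 7 was called with both housekeeping scalings only, and was at -0.60 with TMM, -0.59 with median-of-ratios and -0.01 with total counts. With total counts Ccl7, Ccl4 and Ccl22 were called higher than with sham EVs at both days. The total includes these chemokine genes, so a fall in the most counted of them raises the scaled values of all genes by construction. The split of the 8 genes was then 1 lower and 3 higher at both days, against 12.3% lower and 45% higher over all genes at day 3 and 11.5% and 53.2% at day 7. Between the doses, total counts left Ccl5 (-1.06), Ccl9 (-0.37) and Ccl3 (-0.13) called lower and Ccl12 (-0.13) not called, and called Ccl22 (1.82), Ccl7 (1.27) and Ccl4 (0.84) higher with 9 Gy EVs. That was 3 lower and 3 higher of the 8, against 13.4% lower and 62.5% higher over all genes. Ccl22 was also called higher under TMM (1.15) and median-of-ratios scaling (1.14).

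**Figure D3:**
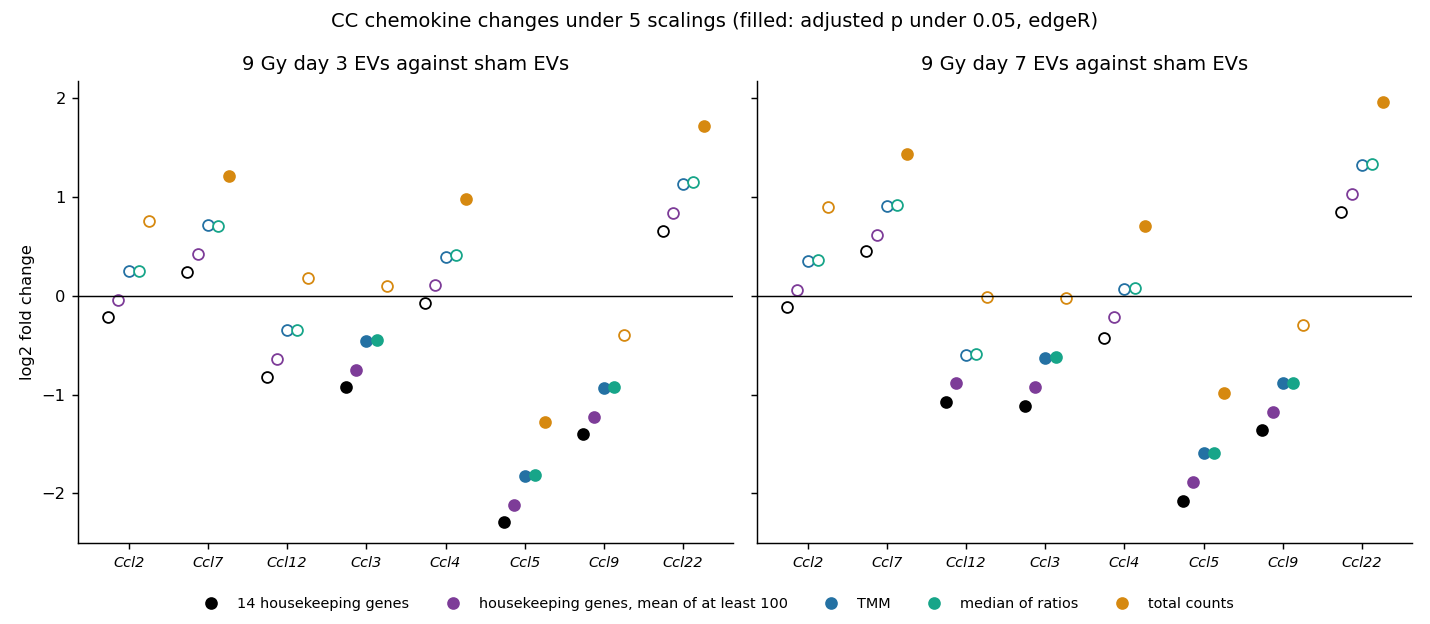
Log2 fold change (y axis) of the 8 tested genes (x axis) against sham EVs under 5 scalings of the samples, for 9 Gy EVs of day 3 (left) and 9 Gy EVs of day 7 (right). Filled points passed an adjusted p of 0.05 in edgeR. Ccl5 is the only gene below 0 and filled under all 5 scalings, and the order of the genes is nearly the same under each.

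A scaling moves all genes of a sample alike, so distances from the median of all genes hardly depend on it by construction. With the housekeeping scaling Ccl5 lay at -1.84 from that median on the log2 scale at day 3, Ccl9 at -0.94, Ccl3 at -0.47 and Ccl12 at -0.37. Ccl2 lay at 0.24, Ccl4 at 0.38, Ccl7 at 0.70 and Ccl22 at 1.12. At day 7 the distance was -1.62 for Ccl5, -0.91 for Ccl9, -0.67 for Ccl3 and -0.62 for Ccl12, and 0.02 for Ccl4, 0.34 for Ccl2, 0.90 for Ccl7 and 1.30 for Ccl22. These distances are a description and were not tested.

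Ratios of raw counts within a sample do not depend on any scaling, and 5 pairs were compared with an exact two-sided permutation test, adjusted over 10 tests. The smallest p that 6 samples against 6 allow is 0.00216, and that of 6 against 3 is 0.0238. These tests take the 6 samples of a dose as independent, although samples with the same number deviated together between the days (correlations of 0.330 to 0.717 for 9 Gy and 0.365 to 0.779 for 2 Gy). Counted by number, each dose has 3 units, and an exact permutation test of 3 against 3 cannot go below p = 0.1, so each call on a ratio rests on that independence. The log2 ratio of Ccl5 to Ccl4 was 3.26 ± 0.66 with 9 Gy EVs (SD, n = 6), 5.09 ± 0.10 with 2 Gy EVs (SD, n = 6) and 5.17 ± 0.21 with sham EVs (SD, n = 3). All 6 samples with 9 Gy EVs lay below the 9 others. The log2 difference was -1.83 against 2 Gy EVs (adjusted p = 0.0072, exact permutation test) and -1.91 against sham EVs (adjusted p = 0.040, exact permutation test). With each of the 9 samples left out in turn the log2 difference from sham EVs was -2.09 to -1.72. The smallest p that the exact permutation test then allows is 0.0357 for 5 samples against 3 and 0.0714 for 6 against 2, before adjustment, so whether these passed the threshold says nothing about the sample left out.

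The log2 ratio of Ccl22 to Ccl5 was -6.67 ± 0.25 with 9 Gy EVs (SD, n = 6), -9.77 ± 1.03 with 2 Gy EVs (SD, n = 6) and -9.89 ± 1.06 with sham EVs (SD, n = 3). It was 8.57-fold higher with 9 Gy EVs than with 2 Gy EVs (log2 difference 3.10, adjusted p = 0.0072, exact permutation test) and 9.36-fold higher than with sham EVs (3.23, adjusted p = 0.040, exact permutation test). All 6 samples lay above the 9 others. With each sample left out in turn the log2 difference from sham EVs was 2.77 to 3.81, under the same limit on p.

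The neighbours Ccl3 and Ccl4 differed too. Their log2 ratio was 4.43 ± 0.53 with 9 Gy EVs (SD, n = 6) and 5.34 ± 0.14 with 2 Gy EVs (SD, n = 6), a log2 difference of -0.90 (adjusted p = 0.011, exact permutation test). Against sham EVs the log2 difference was -0.74 (adjusted p = 0.089, exact permutation test). In the 9 Gy groups the ratio was 3.95 to 4.19 in replicates 1 and 2 and 5.09 and 5.14 in replicate 3, so replicate 3 overlapped sham EVs, at 5.03 to 5.30.

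Of the CCR2 ligands, Ccl2 was lower relative to Ccl7 with 9 Gy EVs. Their log2 ratio was 3.45 ± 0.11 with 9 Gy EVs (SD, n = 6) and 4.14 ± 0.24 with 2 Gy EVs (SD, n = 6), a log2 difference of -0.69 (adjusted p = 0.0072, exact permutation test). The samples numbered 3 did not stand apart in this ratio, at 3.47 and 3.30. Against sham EVs the log2 difference was -0.48 and overlapped (adjusted p = 0.068, exact permutation test). The ratio of Ccl2 to Ccl12 was not called against 2 Gy EVs (log2 difference 0.57, adjusted p = 0.10, exact permutation test) or against sham EVs (0.65, adjusted p = 0.17, exact permutation test), and without 9 Gy day 3 replicate 2 it was called in both (0.78 and 0.85, adjusted p = 0.026 and 0.045, exact permutation test).

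**Figure D4:**
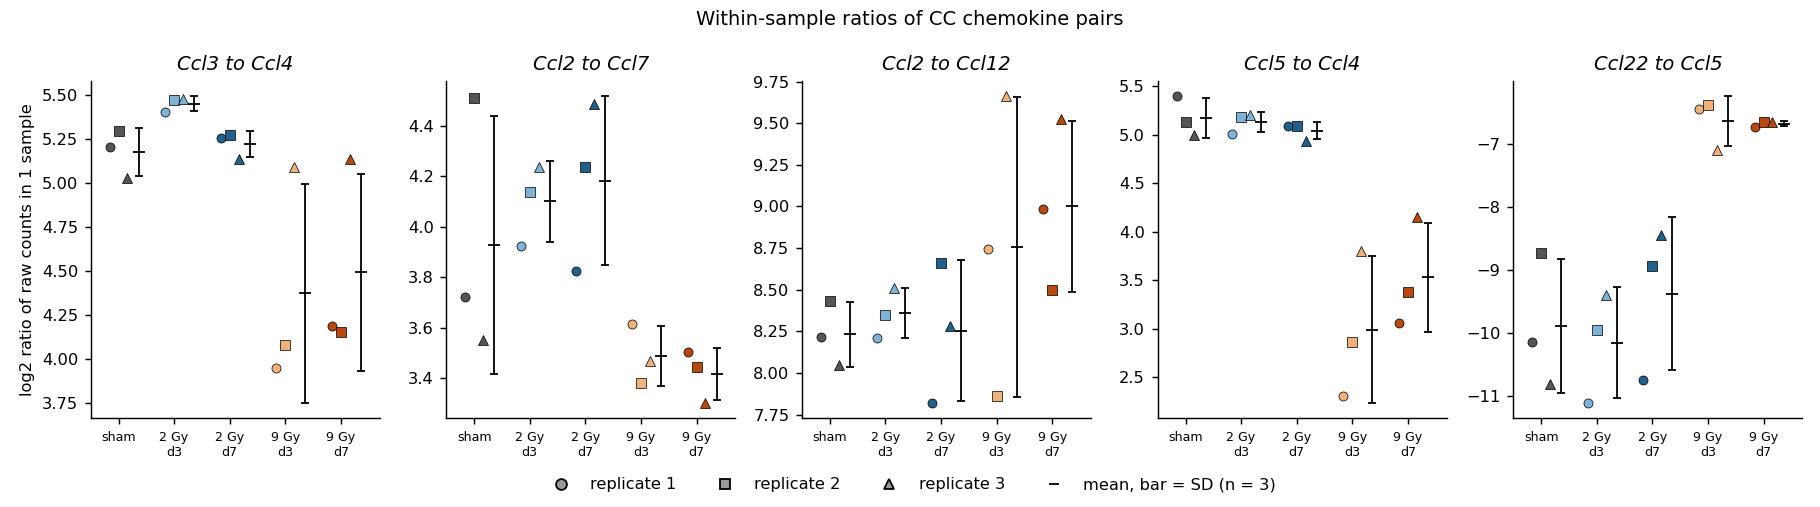
Log2 ratio of raw counts within each sample (y axis, a separate range in each panel) for 5 pairs of CC chemokine genes, by EV group (x axis), with markers for the replicate number and bars for the mean and SD of 3 samples. The ratios of Ccl5 to Ccl4 and of Ccl22 to Ccl5 place all 6 samples with 9 Gy EVs apart from the 9 others.

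The 9 genes held a large part of all counts of the panel. They took 50.8% to 54.2% of the counts of a sample with sham EVs, 53.4% to 55.3% with 2 Gy EVs of day 3 and 53.2% to 54.4% with 2 Gy EVs of day 7. With 9 Gy EVs they took 39.5% to 45.4% at day 3 and 37.7% to 47.9% at day 7, below every other sample. Ccl3 and Ccl5 alone took 42.2% to 45.1% with sham EVs, 31.6% to 32.8% with 9 Gy EVs of day 3 and 30.6% to 33.6% with 9 Gy EVs of day 7. The share of Ccl5 went from 21.2% to 22.5% with sham EVs to 7.87% to 9.51% and 10.3% to 11.3% with 9 Gy EVs of day 3 and day 7, whereas that of Ccl3, 19.7% to 23.9% with sham EVs, overlapped at both days. These shares depend on how well each probe counts and do not rank the genes by mRNA.

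**Figure D5:**
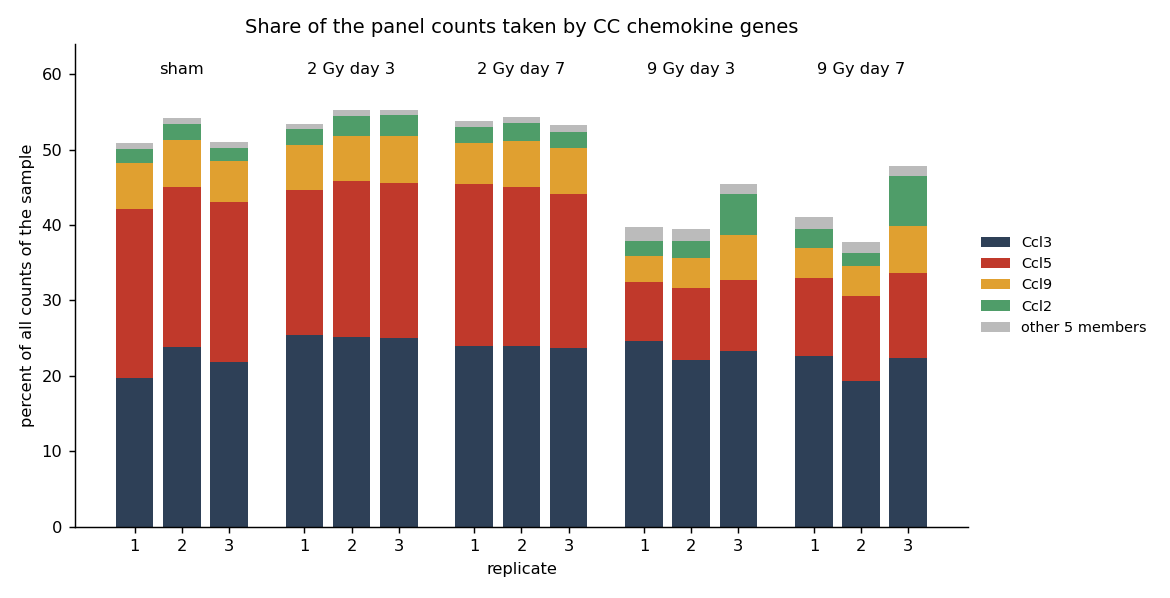
Percent of all counts of a sample (y axis, from 0) taken by Ccl3, Ccl5, Ccl9, Ccl2 and the other 5 genes, as stacked bars for each of the 15 samples (x axis, replicate number within EV group). The total is 50.8% or more in all samples with sham or 2 Gy EVs and 47.9% or less in all samples with 9 Gy EVs, and the Ccl5 segment shrinks most.

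For each tested gene the panel gene outside the group with the most similar pattern was found by Pearson's r of log2 normalized counts over the 15 samples. These samples share the difference between 9 Gy EVs and the rest, and the values are a description. Ccl5 was closest to Ebi3 (r = 0.996), a subunit of interleukin-27 and interleukin-35, Ccl9 to Il1b (r = 0.993), Ccl3 to Il23a (r = 0.971) and Ccl12 to Lta (r = 0.924). Ccl2 and Ccl7 were both closest to Nos2, the inducible nitric oxide synthase, at r = 0.938 and r = 0.741. Ccl22 was closest to Cxcl11 (r = 0.913) and Ccl4 to Tbk1 (r = 0.813).

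Among other chemokine genes of the panel, none of the 7 other CC ligands passed the filter, and the highest count of any of them was 18. Of 11 other chemokines 3 were tested, and at each 9 Gy day 1 was lower and 2 were higher than with sham EVs, against 41.3% lower and 11.2% higher over all genes at day 3 and 49.1% and 11.9% at day 7. The higher genes were Cxcl10 and Cxcl11, interferon-inducible ligands of CXCR3. Cxcl10 was at 1548 ± 330 normalized counts with sham EVs, 7748 ± 4031 with 9 Gy EVs of day 3 and 6551 ± 3062 with 9 Gy EVs of day 7 (SD, n = 3 each). Replicate 3 of both 9 Gy groups, at 3339 and 3033, lay below replicates 1 and 2, at 8011 to 11244, and above every other sample. The log2 fold changes of Cxcl10 were 2.32 and 2.08 (standard error 0.41 for both, adjusted p = 0.00036 and 0.00060 in edgeR), and it was called higher under all 5 scalings. Cxcl11 rose by 0.79 and 0.76 on the log2 scale (adjusted p = 0.025 and 0.023 in edgeR), also under all 5 scalings. The lower gene, Xcl1, had at most 4 counts in the 9 Gy day 3 samples, and at day 7 its log2 fold change ran from -0.83 to 0.27 over the scalings. The median log2 fold change of these 3 genes was 0.79 and 0.76, against -0.46 and -0.45 over all genes tested.

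Of 12 CC chemokine receptor genes on the panel only Ccrl1 and Ccrl2, atypical receptors, passed the filter. The highest count of CCR2 in any sample was 11 and that of CCR4 was 30. Ccrl2 was at 252 ± 26.0 normalized counts with sham EVs, 89.3 ± 32.8 with 9 Gy EVs of day 3 and 76.1 ± 12.9 with 9 Gy EVs of day 7 (SD, n = 3 each). Its log2 fold change was -1.55 at day 3 (adjusted p = 6.2e-05 in edgeR), called under 4 of 5 scalings, and -1.73 at day 7 (adjusted p = 5.4e-06 in edgeR), called under all 5. Ccrl1 was called lower at day 7 (-1.28, adjusted p = 0.0034 in edgeR), under 4 of 5 scalings. At day 3 Ccrl1 overlapped sham EVs and was not called (adjusted p = 0.085 in edgeR). The median log2 fold change of both genes was -1.28 at day 3 and -1.51 at day 7, against -0.46 and -0.45 over all genes tested, of which 41.3% and 49.1% were lower.

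Along the route from Toll-like receptor 4 to NF-κB and IRF3, which LPS engages, 15 of 17 panel genes were tested. With 9 Gy EVs of day 3 3 were lower and 2 higher, and with 9 Gy EVs of day 7 5 were lower and 0 higher, with median log2 fold changes of 0.04 and -0.02. Over all genes tested 41.3% were lower and 11.2% higher at day 3 and 49.1% and 11.9% at day 7, with medians of -0.46 and -0.45. At day 3 Irak4 (0.87) and Rela (0.55), a kinase and an NF-κB subunit, were higher under all 5 scalings. Their raw counts in that group were 7 to 15 and 17 to 26, with no background subtracted. With the housekeeping scaling neither was called at day 7 (0.33 and 0.24, adjusted p = 0.14 and 0.25 in edgeR). Irak2 (-0.42) at day 3 was called lower under 1 scaling and higher under total counts. The other lower genes at day 3 were Cd14 (-1.20, adjusted p = 0.011 in edgeR) and Ly96 (-1.11, adjusted p = 0.033 in edgeR), which overlapped sham EVs, were called lower under 2 and 1 of 5 scalings and are named after their values were seen. At day 7 the co-receptor Cd14 (-1.34) was called lower under 3 of 5 scalings, and Ly96 (-0.99), Tbk1 (-0.64) and Ikbkg (-0.61) under 2, 1 and 1. The remaining lower gene was Irak2 (-0.38), called lower under 1 scaling and higher under total counts (0.73). Of the receptors, route genes and other chemokines 0 were called with 2 Gy EVs of either day in edgeR.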

How the data were processed

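The authors deposited raw nCounter counts of the 561 panel genes as whole numbers, without control probes. Per the paper they later normalized them in nSolver v4.0, whose settings are not given in the sources used here. The lowest count was 1 and no background was subtracted.

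Each sample was divided by the geometric mean of its 14 housekeeping genes, the 269 genes averaging 20 counts or more were kept, and all 5 groups entered 1 edgeR 4.0.16 quasi-likelihood fit (R 4.3.3, prior count 0.125) with Benjamini-Hochberg adjustment over the genes tested and a threshold of 0.05. The procedure was tested on simulated data. Ratio tests used SciPy 1.17.1. Alternatives were other scalings and filters, counts under 20 set to 20, DESeq2 1.42.0, the groups compared alone, a replicate block, both treatments of the conflicting day labels and each sample left out.

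Samples with the same number deviated together between the 9 Gy groups (correlations 0.330 to 0.717) and between the 2 Gy groups (0.365 to 0.779), whereas in other pairs of groups not all correlations passed 0.1. The labels do not say what a number shares, and samples of different numbers correlated at up to 0.421 and 0.611.

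The genes and gene lists were chosen with earlier results of these data known. Every member was named, with its closest other gene, and at most 4 called genes without overlap from each list and comparison. Cd14, Ly96 and Ccrl1 at 9 Gy day 3 were added after their values were seen. So were Irak2, Irak4 and Rela at 9 Gy day 7 and the cell type markers with values. Positions and promoters came from RefSeq.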

Additional observations from a re-analysis of the deposited data

Results flagged for a closer look

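For 4 of the 8 tested CC chemokine genes the effect of 9 Gy EVs differed from that of 2 Gy EVs in the direct test between the doses, all of them lower with 9 Gy EVs. The log2 difference, 9 Gy less 2 Gy, was -2.18 for Ccl5, -1.47 for Ccl9, -1.26 for Ccl3 and -1.24 for Ccl12 (quasi-likelihood test of edgeR, adjusted p at most 0.00054). The test takes the samples as independent, although those with the same number deviated together between the days. All 6 samples with 9 Gy EVs lay below all 6 with 2 Gy EVs for each gene. Over all 269 genes 52% were lower with 9 Gy EVs, 15.6% were higher and 43.9% did not overlap, so that 4 of 8 is near the share over the panel.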

How the results depend on the processing

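Of the log2 fold changes of members under the alternatives, 1054 kept their side of the threshold and, where called, their direction. They include the 2 Gy comparisons with sham EVs and those between days, where no member was called in the main fit. This count therefore does not measure how stable the 9 Gy calls are. A further 24 passed the threshold under the alternative only, 10 no longer passed it and 7 changed sign with a call involved. Those 7 were, with total-count scaling, Ccl3 at 9 Gy day 3 (0.10) and Ccl4 at 9 Gy day 3, 9 Gy day 7 and 9 Gy against 2 Gy (0.98, 0.71 and 0.84), without both 9 Gy samples numbered 3, Ccl7 at 9 Gy day 7 and 9 Gy against 2 Gy (-0.64 and -0.71), and with counts under 20 set to 20, Ccl12 at 9 Gy day 3 (1.31). In this last setting the raw counts of 2 to 6 become 20 at a much lower depth than in the others, which raises them by construction. The cause of the others was not tested. The same setting gave 1 member called between the 9 Gy days, Ccl12, lower at day 7, among 87 of all 269 genes, and ended the call of Ccl12 between the doses (-0.17). The replicate block in all groups changed no call of a member. The block within the 2 Gy groups alone, which was not planned, gave 1, Ccl22 (0.92), among 29 of all 269 genes. Against sham EVs, the log2 ratio of Ccl5 to Ccl4 was -1.58 and that of Ccl22 to Ccl5 was 3.10 without the samples of conflicting day labels, and -2.27 and 3.33 without both 9 Gy samples numbered 3. Leaving out each sample in turn gave -2.09 to -1.72 and 2.77 to 3.81, and for Ccl2 to Ccl12 0.42 to 0.78 against 2 Gy EVs and 0.49 to 0.85 against sham EVs. Both ratios against sham EVs lost their call in each of these but without 9 Gy day 3 replicate 2. Fewer samples raise the smallest p that the exact test allows to near or above the threshold, so these losses say nothing about the samples left out. Ccl2 to Ccl12 was called without 9 Gy day 3 replicate 2 alone. Low depth in the 9 Gy day 3 group limits Ccl12, and Ccl6 had few counts in every group. No member's counts can be corrected for background.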
